A study of Homo sapiens with 8 samples.

Results

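Among the 60671 genes listed for MM.1S cells, 9 long noncoding RNAs that are linked with cell stress or that carry small nucleolar RNAs (snoRNAs) were described. They are NEAT1, MALAT1, GAS5, ZFAS1, SNHG1, SNHG8, SNHG12, SNHG15 and EPB41L4A-AS1, chosen by gene name, and all 9 were found once in each table and passed the filter on low values in every comparison. GENCODE release 29 gave 14828 of the listed genes a long noncoding type. MM.1S is an established human multiple myeloma (MM) line, a cancer of plasma cells, and RNA was sequenced from 8 samples of these cells, labelled WT and grown alone in medium with serum. After 12 h, 2 samples each had received vehicle, FeAc, the iron compound of the study, bortezomib, a proteasome inhibitor used against MM, or bortezomib plus FeAc. The study examined what iron does in MM cells and in their response to bortezomib. Doses were not given by the labels.

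NEAT1 is the scaffold of paraspeckles, nuclear bodies that hold RNA and RNA-binding proteins, and its long isoform is needed to build them. MALAT1 is made from the neighbouring gene and gathers in nuclear speckles, where splicing factors are stored. The other RNAs are hosts: their introns are trimmed to snoRNAs, which guide chemical marks on ribosomal RNA, while the spliced host RNA is exported, is often engaged by ribosomes and is degraded by nonsense-mediated decay. Many hosts share with ribosomal protein genes a start at a C within a run of pyrimidines (the 5′ terminal oligopyrimidine, or TOP, motif), which ties their RNA to growth signals.

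One table holds the vehicle and FeAc samples and another the samples with bortezomib. Both list the same gene IDs, and their values were read as TPM, a level per gene length scaled to a common total within a sample. The sums were between 994968 and 996780 TPM, and 13020 to 13770 genes reached 1 TPM. The tables hold no counts, so the depth behind a value is unknown. Vehicle and bortezomib samples are in different tables, so bortezomib and the table cannot be told apart in any comparison between them. All 10 plasma cell markers examined reached 1 TPM in every sample, and their summed level was 7618 to 9920 TPM without bortezomib and 4109 to 5750 TPM with it. With bortezomib 7 of the 10 lay wholly below vehicle and 2 wholly above, where 35% and 26.1% of all genes tested did so. XBP1, a plasma cell transcription factor, was called lower (log2 fold change -0.69, adjusted p = 0.0393, limma). A call was an adjusted p under 0.05 together with a change of over 1.5-fold, which 12.2% of all genes passed in that comparison. The 2 markers above vehicle were SLAMF7 (log2 fold change 0.49) and PRDM1 (0.31), neither of them called. The 16 markers of other cells summed to 12.5 to 20.7 TPM, and 5 to 8 of them were listed at 0. Of the 5 tested, COL1A1 was called higher (1.61, adjusted p = 0.00865, limma) and HBB lower (-1.63, adjusted p = 0.0366, limma) with bortezomib against vehicle. The part of these markers in the results was not tested. Mitochondrially encoded mRNA took 2.73% to 13.8% of the TPM. The study's methods name 2 biological replicates, and p-values measure only the spread between these samples.

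The starts of the host genes are shown because the TOP motif is the sequence feature that hosts are best known to share. Each line gives 60 bases of GRCh38.p14 from the RefSeq promoter table, 5′ to 3′ on the gene's strand, with the annotated first base of the RNA at position 31. Capitals mark a C followed by at least 4 further C or T that begins within 5 bases of that position.
ZFAS1, chr20:49278612-49278671, plus strand: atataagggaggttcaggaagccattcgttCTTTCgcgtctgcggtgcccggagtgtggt
SNHG8, chr4:118278732-118278791, plus strand: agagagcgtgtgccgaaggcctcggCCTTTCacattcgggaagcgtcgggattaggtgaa
SNHG12, chr1:28581844-28581903, minus strand: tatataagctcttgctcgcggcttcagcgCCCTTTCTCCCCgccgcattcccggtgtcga
SNHG1, chr11:62855856-62855915, minus strand: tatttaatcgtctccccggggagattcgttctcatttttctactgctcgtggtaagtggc
GAS5, chr1:173869016-173869075, minus strand: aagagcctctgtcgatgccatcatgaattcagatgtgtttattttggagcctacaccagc
EPB41L4A-AS1, chr5:112160496-112160555, plus strand: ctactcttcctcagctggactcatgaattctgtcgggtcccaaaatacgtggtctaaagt
Such a run was in 3 of the 6 hosts with an entry, and 18.1% of 35116 promoters of the table hold one. A run counted here may begin before the annotated first base, while a TOP motif is the start of the RNA itself. The run of SNHG8 began 5 bases before that base, so that only its last C lies in the annotated RNA. That of SNHG12 began 1 base before it, and that of ZFAS1 began on it. The run of SNHG12 was 12 bases long, a length that 1.10% of the promoters reach. The RefSeq start lay 0 to 1259 bases from the start of the gene in GENCODE release 29, so another start would show other letters. NEAT1 and SNHG15 are not shown.

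NEAT1 (ENSG00000245532, chromosome 11, 65422774 to 65445540, plus strand of GRCh38, a lincRNA with 8 annotated transcripts of 512 to 22743 bases) was at 291 and 489 TPM in the vehicle samples. It was at 671 and 512 TPM with FeAc, at 2213 and 2061 TPM with bortezomib and at 2486 and 1719 TPM with bortezomib plus FeAc. The 4 samples with bortezomib lay above the 4 without, and the lowest of them was 2.56 times the highest sample without the drug. In all, 4 of the 9 RNAs (NEAT1, MALAT1, GAS5 and SNHG12) had every sample with bortezomib above every sample without, and 0 had every sample below, where 13.1% and 23.3% of all genes tested did so. Among long noncoding RNAs, NEAT1 ranked 5 by mean TPM with vehicle, 3 with FeAc and 2 with bortezomib, with or without FeAc. A gene value mixes the short and the long isoform, and which of them moved is not told by these data.

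MALAT1 (ENSG00000251562, chromosome 11, 65497688 to 65506516, plus strand) begins 52147 bases beyond the end of NEAT1. It was at 141 and 346 TPM with vehicle, at 333 and 181 TPM with FeAc, at 524 and 666 TPM with bortezomib and at 711 and 528 TPM with bortezomib plus FeAc. Here too no sample with bortezomib overlapped one without, and the lowest was 1.52 times the highest without. The vehicle samples differed from each other by 2.46 times, the widest spread within a group among the 9 RNAs. Among long noncoding RNAs MALAT1 ranked 10 by mean TPM with vehicle and 4 with bortezomib.

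**Figure D1:**
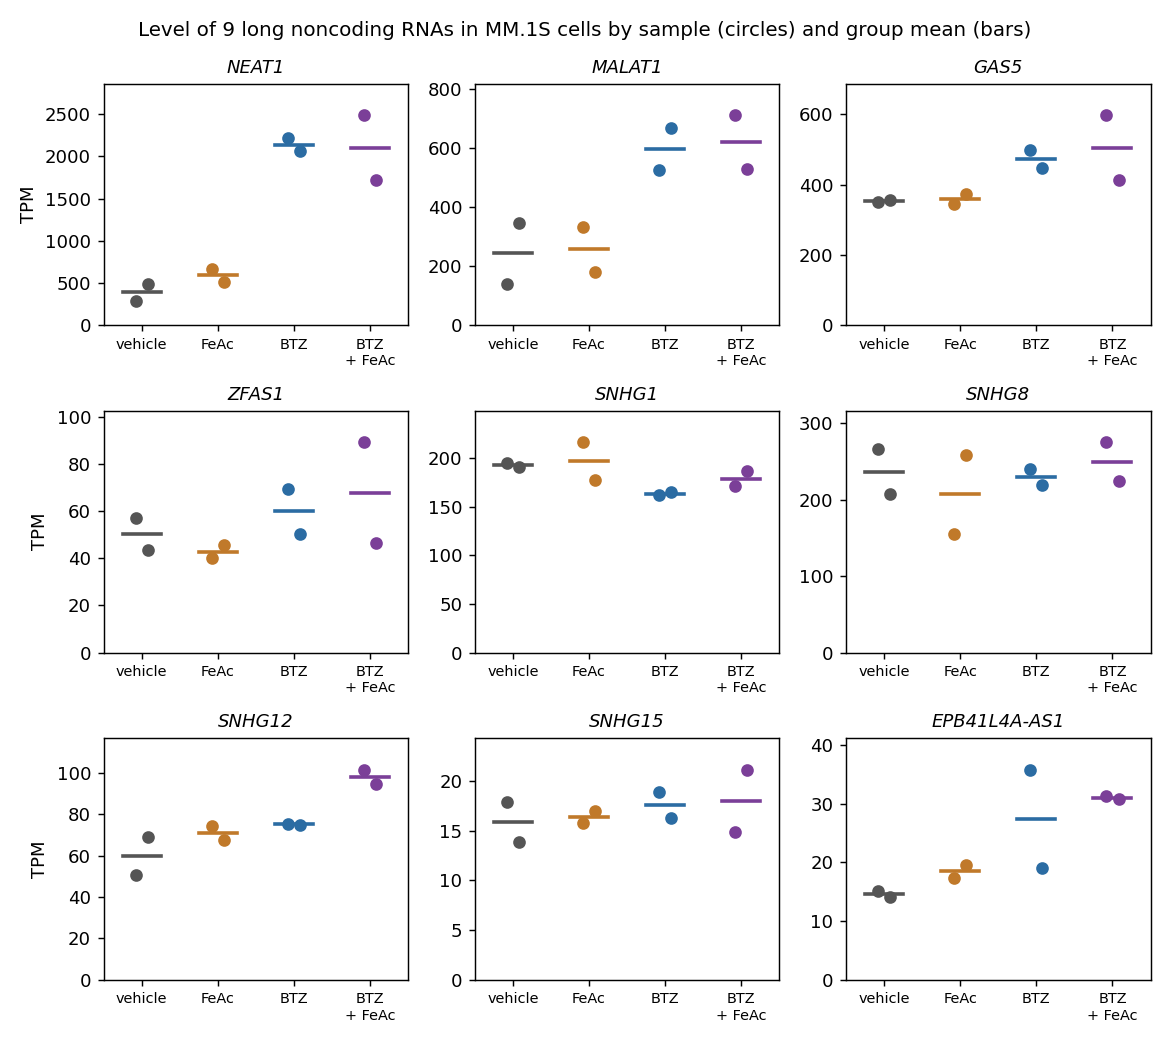
Level of each of the 9 RNAs in TPM (vertical axes, linear from 0, with a separate scale per RNA) in the 4 groups. Circles are samples and bars are the mean of 2 samples. For NEAT1 the 4 samples with bortezomib (BTZ) sit between 1719 and 2486 TPM and the 4 without between 291 and 671 TPM, and for SNHG15 the samples span only 13.8 to 21.2 TPM.

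Bortezomib against vehicle asks what the drug did without iron. NEAT1 rose by 2.50 on the log2 scale (SE 0.30, adjusted p = 0.00370, limma with Benjamini-Hochberg adjustment over 14812 genes), from 390 ± 140 to 2137 ± 107 TPM (SD, n = 2), or 5.48-fold by the group means. It was the only 1 of the 9 RNAs called. Of all genes tested, 12.2% were called, 6.27% higher and 5.89% lower. An unadjusted p under 0.05 was reached by 3 of the 9 RNAs and by 30.2% of all genes. Of 1764 long noncoding RNAs tested, 3.85% were called higher and 3.46% lower, and the log2 fold change of NEAT1 ranked 10 among them. MALAT1 had a log2 fold change of 1.42 (SE 0.44, adjusted p = 0.0758, limma) and ranked 48. This was 0.77 without vehicle replicate 1 and 2.06 without vehicle replicate 2. Its means were 243 ± 145 and 595 ± 100 TPM (SD, n = 2), so that the groups did not overlap but the test across all genes was not passed. In bulk RNA, fewer cells of a kind and less RNA per cell cannot be told apart.

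The call of NEAT1 rested on both bortezomib samples being present. Without bortezomib replicate 1 its log2 fold change was 2.45 (adjusted p = 0.0806, limma) and without bortezomib replicate 2 it was 2.55 (adjusted p = 0.0623, limma), and the genes called fell from 1800 to 74 and 167.

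With iron in both arms, bortezomib plus FeAc against FeAc gave the same order for these nuclear RNAs. NEAT1 rose by 1.82 (log2, SE 0.30, adjusted p = 0.0128, limma), from 591 ± 113 to 2103 ± 542 TPM (SD, n = 2), and 13.8% of the genes tested were called, 4.94% higher and 8.86% lower. An unadjusted p under 0.05 was reached by 5 of the 9 RNAs and by 32.3% of all genes, and 6 of the 9 lay wholly above FeAc and 0 wholly below, where 19.4% and 39.4% of all genes did so. MALAT1 had a log2 fold change of 1.31 (SE 0.44, adjusted p = 0.0842, limma). The call of NEAT1 was lost without either FeAc sample (adjusted p = 0.0915 and 0.114, limma), without either bortezomib sample (0.0628 and 0.0576), without bortezomib plus FeAc replicate 1 (0.0839), with only the compared groups in the fit (0.0593) and with no filter on low values (0.0548). Its log2 fold change was at least 1.55 in all of these.

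When the effect of bortezomib was averaged over samples with and without FeAc, an alternative chosen after seeing the data, NEAT1, MALAT1 and EPB41L4A-AS1 were called. The log2 fold changes were 2.16 for NEAT1 (SE 0.21, adjusted p = 0.000657), 1.37 for MALAT1 (SE 0.31, adjusted p = 0.0148) and 0.76 for EPB41L4A-AS1 (SE 0.19, adjusted p = 0.0193), all by limma with the same adjustment. This comparison called 22.5% of all genes, 8.22% of them higher. GAS5 (0.44, adjusted p = 0.0458, limma) and SNHG12 (0.40, adjusted p = 0.0396, limma) passed the p but not the fold. The other hosts passed neither, with log2 fold changes of -0.19 for SNHG1 to 0.41 for ZFAS1.

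**Figure D2:**
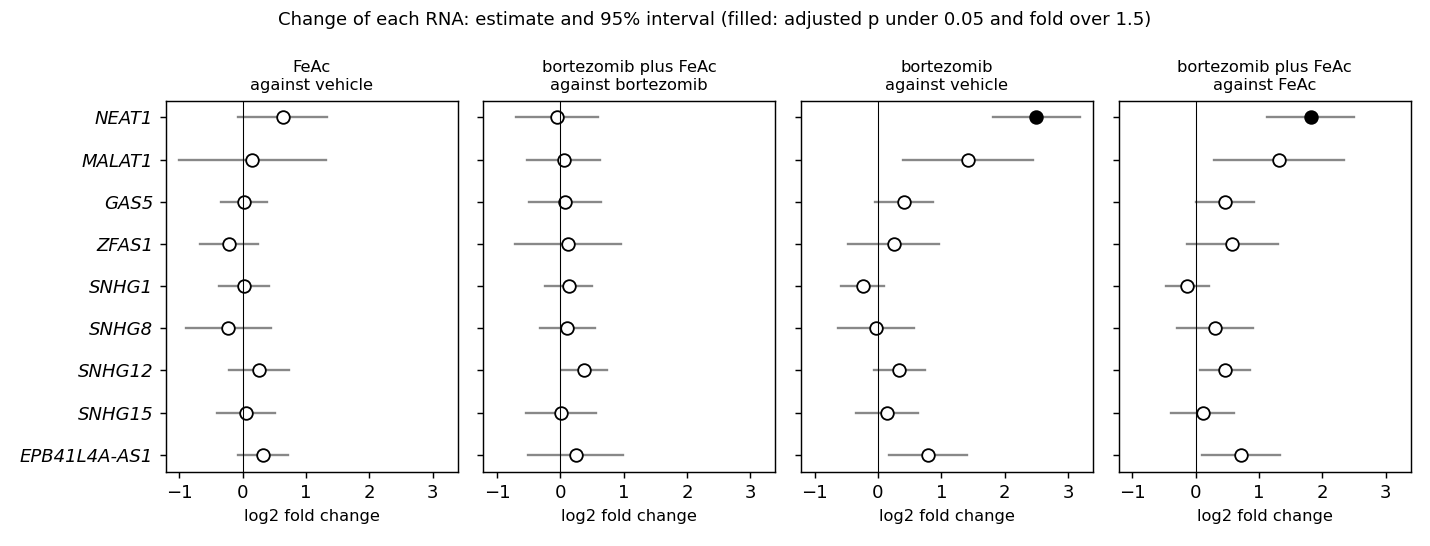
Log2 fold change (horizontal axes) of each RNA in 4 comparisons, with 95% intervals from limma as lines. Filled circles mark the calls, which are NEAT1 at 2.50 for bortezomib against vehicle and at 1.82 for bortezomib plus FeAc against FeAc, and in both comparisons of FeAc all intervals span 0 except that of SNHG12 on top of bortezomib (0.02 to 0.74).

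EPB41L4A-AS1 (ENSG00000224032, chromosome 5, 112160526 to 112164276, plus strand), the host of SNORA13, was at 15.2 and 14.1 TPM with vehicle and at 17.4 and 19.6 TPM with FeAc. It was at 35.8 and 18.97 TPM with bortezomib and at 31.4 and 30.7 TPM with bortezomib plus FeAc. The second bortezomib sample stayed below the higher FeAc sample, while the other 3 samples with bortezomib lay above all without. Its log2 fold change was 0.80 (SE 0.26, adjusted p = 0.0905, limma) against vehicle and 0.72 (SE 0.26, adjusted p = 0.106, limma) on top of FeAc. Without bortezomib replicate 2 the first of these was 1.24 (adjusted p = 0.0493, limma), and without bortezomib replicate 1 it was 0.35. The gene lies wholly within EPB41L4A on the opposite strand, which was at 0.57 to 3.78 TPM. Whether counting used the strand is not given in the sources used here, so reads of the partner genes could not be told apart.

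GAS5 (ENSG00000234741, chromosome 1, 173863900 to 173868882, minus strand), a host of many snoRNAs that accumulates when growth stops, was the most abundant host per length. It was at 352 and 355 TPM with vehicle, at 346 and 373 TPM with FeAc, at 498 and 446 TPM with bortezomib and at 597 and 412 TPM with bortezomib plus FeAc. Every sample with bortezomib was above every sample without, by a narrow gap, the lowest sample with the drug being 1.11 times the highest without it. The log2 fold change was 0.41 against vehicle (SE 0.20, adjusted p = 0.2004, limma) and 0.46 on top of FeAc (SE 0.20, adjusted p = 0.147, limma). Without bortezomib plus FeAc replicate 2 the second of these was 0.73 and was called (adjusted p = 0.0205, limma), with 3275 genes called in all. GAS5 overlaps ZBTB37, on the opposite strand, over 801 bases at its start, and ZBTB37 was at 1.00 to 2.31 TPM.

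SNHG12 (ENSG00000197989, chromosome 1, 28578538 to 28583132, minus strand), the host with the long pyrimidine run, was at 50.5 and 69.3 TPM with vehicle and at 74.2 and 67.6 TPM with FeAc. Its values were 75.5 and 74.8 TPM with bortezomib and 102 and 94.8 TPM with bortezomib plus FeAc. The samples given both agents lay above all 6 others, and the bortezomib samples lay just above the FeAc samples. The log2 fold change was 0.34 against vehicle (SE 0.17, adjusted p = 0.226, limma) and 0.47 on top of FeAc (SE 0.17, adjusted p = 0.108, limma), and it was called in the second comparison with scaling by the median of ratios (0.67, adjusted p = 0.0363, limma).

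ZFAS1 (ENSG00000177410, chromosome 20, 49278178 to 49295738, plus strand), the host of the SNORD12 family, was at 56.9 and 43.4 TPM with vehicle and at 39.98 and 45.7 TPM with FeAc. With bortezomib it was at 69.3 and 50.4 TPM, and with bortezomib plus FeAc at 89.1 and 46.3 TPM. The last group differed within itself by 1.93 times, and its lower sample lay among the samples without the drug. The log2 fold changes for the drug were 0.25 (SE 0.31) against vehicle and 0.58 (SE 0.31) on top of FeAc, with adjusted p of 0.638 and 0.239 (limma). Without bortezomib plus FeAc replicate 2 the second of these was 1.04 and was called (adjusted p = 0.0445, limma). ZFAS1 overlaps ZNFX1, on the opposite strand, over 249 bases at its start, and ZNFX1 was at 2.35 to 3.95 TPM.

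SNHG1 (ENSG00000255717, chromosome 11, 62851988 to 62855914, minus strand) is the host of SNORD22 and several other snoRNAs. Among the 7 hosts described here, it was the only 1 whose bortezomib samples lay wholly below vehicle. Of 22 other noncoding hosts tested, 10 lay wholly below vehicle and 7 wholly above. Of 26 protein-coding hosts, 7 lay wholly below and 11 wholly above. SNHG1 was at 195 and 190 TPM with vehicle, at 216 and 178 TPM with FeAc, at 162 and 165 TPM with bortezomib and at 171 and 186 TPM with bortezomib plus FeAc. The log2 fold change was -0.24 (SE 0.15, 95% interval -0.58 to 0.10, adjusted p = 0.314, limma), and of all genes tested 35% had bortezomib samples wholly below vehicle. On top of FeAc it was -0.13 (SE 0.15, adjusted p = 0.570, limma), a sign that turned to 0.08 with scaling by the median of ratios.

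SLC3A2, the heavy chain of amino acid transporters and a known target of the ATF4 stress factor, starts 188 bases from SNHG1 on the opposite strand and was chosen after its values were seen. It was at 81.5 and 90.9 TPM with vehicle, at 122 and 135 TPM with FeAc, at 436 and 359 TPM with bortezomib and at 515 and 331 TPM with bortezomib plus FeAc. Its log2 fold change with bortezomib was 2.19 against vehicle (SE 0.22, adjusted p = 0.00261, limma) and 1.68 on top of FeAc (SE 0.22, adjusted p = 0.00773, limma). Whether SNHG1 and SLC3A2 differed in their change was not tested.

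SNHG8 (ENSG00000269893, chromosome 4, 118278709 to 118279823, plus strand), the host of SNORA24, was at 266 and 208 TPM with vehicle, at 155 and 259 TPM with FeAc, at 241 and 219 TPM with bortezomib and at 275 and 224 TPM with bortezomib plus FeAc. All groups overlapped, and the widest gap was between the FeAc samples. The log2 fold change with bortezomib was -0.03 against vehicle (95% interval -0.63 to 0.56), 0.04 with scaling by the median of ratios, and 0.31 on top of FeAc (95% interval -0.29 to 0.90). Both intervals hold changes in either direction.

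SNHG15 (ENSG00000232956, chromosome 7, 44983023 to 44986961, minus strand), the host of SNORA9 and a short-lived RNA, was, with EPB41L4A-AS1, among the least abundant hosts per length. It was at 17.9 and 13.8 TPM with vehicle, at 15.7 and 17.0 TPM with FeAc, at 18.9 and 16.3 TPM with bortezomib and at 14.8 and 21.2 TPM with bortezomib plus FeAc. No group stood apart from another. The log2 fold change with bortezomib was 0.15 against vehicle (95% interval -0.34 to 0.64) and 0.11 on top of FeAc (95% interval -0.38 to 0.60).

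Together the 7 hosts took 0.0868% to 0.129% of the TPM of a sample, and NEAT1 with MALAT1 took 0.0434% to 0.321%. The median log2 fold change of the hosts was 0.25 for bortezomib against vehicle and 0.46 on top of FeAc, beside medians of -0.06 and -0.17 over all genes tested. Of the 9 RNAs, 5 lay wholly above vehicle with bortezomib and 1 wholly below, where 26.1% and 35% of all genes did so. By mean TPM the order with vehicle was NEAT1, GAS5, MALAT1, SNHG8, SNHG1, SNHG12, ZFAS1, SNHG15 and EPB41L4A-AS1. Neighbours in that order whose samples overlapped were NEAT1 and GAS5, MALAT1 and SNHG8, SNHG12 and ZFAS1, and SNHG15 and EPB41L4A-AS1. With bortezomib NEAT1 stood clear above MALAT1, and MALAT1 (lowest 524 TPM) above GAS5 (highest 498 TPM).

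FeAc against vehicle asks what iron alone did. None of the 9 RNAs was called by limma, and 0 of them had an unadjusted p under 0.05. Of 13998 genes tested, 2 were called (0.0143%), and 3.82% had an unadjusted p under 0.05. With 2 samples a group, few calls do not show that few genes changed. The study, by its own analysis at the same thresholds, reported many more genes changed by iron in MM.1S cells. The FeAc samples lay wholly above vehicle for 2 of the 9 RNAs and wholly below for 0, where 23.4% and 10.4% of all genes did so. These were NEAT1, with a log2 fold change of 0.63 (SE 0.29, adjusted p = 0.891, limma), and EPB41L4A-AS1 (0.32, SE 0.16, adjusted p = 0.891, limma). MALAT1 had a log2 fold change of 0.15 (SE 0.47), which turned to -0.49 without vehicle replicate 1 and to -0.29 without FeAc replicate 1. The hosts lay between -0.23 and 0.32, around a median of 0.03 that stood beside 0.09 over all genes.

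Bortezomib plus FeAc against bortezomib asks what iron did on top of the drug. Again 0 of the 9 RNAs were called by limma, 1 had an unadjusted p under 0.05, and 1 of 13865 genes was called (0.00721%), with 2.09% at an unadjusted p under 0.05. That RNA was SNHG12, with a log2 fold change of 0.38 (SE 0.14, unadjusted p = 0.0405, adjusted p = 1.00, limma) from 75.1 ± 0.49 to 98.2 ± 4.94 TPM (SD, n = 2). SNHG12 and SNHG1 (0.13, SE 0.15) lay wholly above bortezomib and 0 of the 9 wholly below, where 8.86% and 13.1% of all genes did so. NEAT1 was at -0.05 (95% interval -0.69 to 0.60) and MALAT1 at 0.05 (95% interval -0.52 to 0.62), so that no change of these RNAs was detectable with 2 samples a group. Both signs turned when a sample was left out.

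The difference between the effect of FeAc with and without bortezomib was tested as an interaction. None of the 9 RNAs passed by limma, 0 had an unadjusted p under 0.05, and 1 of 14812 genes was called (0.00675%), with 2.35% at an unadjusted p under 0.05. The gene called was a row named SNORD22 that lies within SNHG1. Rows of that name were listed at 0 in most samples, and their values were not read as snoRNA levels. NEAT1 had an interaction of -0.68 (log2, SE 0.42, unadjusted p = 0.144, adjusted p = 0.983, limma), and those of the other RNAs were between -0.10 for MALAT1 and 0.34 for SNHG8.

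The share of mitochondrially encoded mRNA also differed between samples. It was 7.66% and 13.4% in the vehicle samples, 13.8% and 11.01% with FeAc, 5.17% and 7.77% with bortezomib and 2.73% and 9.67% with bortezomib plus FeAc. Among the 4 samples without the drug, NEAT1 and MALAT1 were lowest in vehicle replicate 1, the sample with the lowest share. With bortezomib plus FeAc the order was turned, with more NEAT1 and MALAT1 in replicate 1, where the share was lowest of all. The part of this share in the results was not tested.

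**Figure D3:**
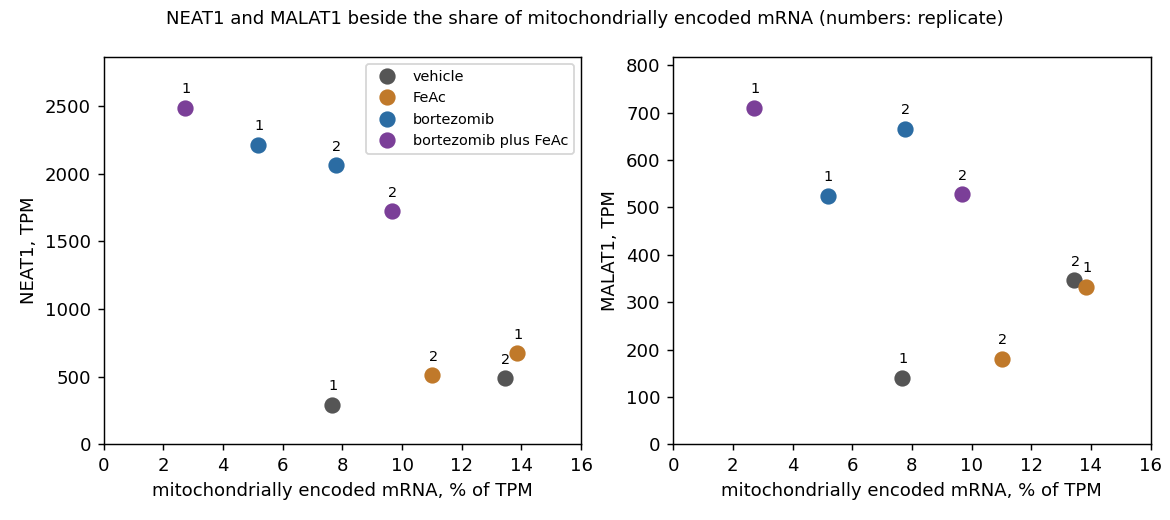
Level of NEAT1 (left) and MALAT1 (right) in TPM against the share of TPM from mitochondrially encoded mRNA in percent, in the 8 samples, numbered by replicate. The share runs from 2.73% in bortezomib plus FeAc replicate 1 to 13.8% in FeAc replicate 1. Its part in these levels was not tested.

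Genes of the pathways in which these RNAs act were counted from lists that were chosen with earlier results of these data known. Of 14 paraspeckle proteins, 1 was called with bortezomib against vehicle, where 12.2% of all genes were. It was RBM14, needed for paraspeckle formation, at 21.6 and 36.0 TPM with vehicle and 66.6 and 57.1 TPM with bortezomib (log2 fold change 1.12, SE 0.26, adjusted p = 0.0338, limma), and its log2 fold change on top of FeAc was 0.39 (adjusted p = 0.330, limma). The median of the 14 was 0.01 on the log2 scale, beside -0.06 over all genes. On top of FeAc 0 of the 14 were called, and their median was -0.28 beside -0.17 over all genes. There 7 lay wholly below FeAc and 1 wholly above, where 39.4% and 19.4% of all genes did so.

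Other noncoding snoRNA hosts gave 1 call among 22 tested, SNHG7, at 46.4 and 44.4 TPM with vehicle and 90.3 and 77.1 TPM with bortezomib (log2 fold change 0.86, SE 0.19, adjusted p = 0.0301, limma). DANCR had an adjusted p of 0.0284 (limma) but a fold under the threshold, from 170 and 157 TPM to 112 and 107 TPM. The 22 had a median of -0.31, with 7 wholly above vehicle and 10 wholly below, where 26.1% and 35% of all genes were. Of 26 protein-coding hosts, 2 were called higher, the chaperones HSPA8 (3.19, SE 0.34, adjusted p = 0.00287, limma) and HSPA9 (0.90, SE 0.13, adjusted p = 0.00754, limma), around a median of 0.19.

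Of 17 proteins that bind snoRNAs or assemble their particles, 14 lay wholly below vehicle with bortezomib, where 35% of all genes did so, and their median was -0.21 on the log2 scale beside -0.06 over all genes. The only call among them was RUVBL2, an assembly helicase, which rose (0.67, SE 0.16, adjusted p = 0.0370, limma). On top of FeAc RUVBL2 had a log2 fold change of 0.47 and was not called (adjusted p = 0.0899, limma), and the only call was FBL, the methyltransferase of box C/D particles, which was lower (-0.63, adjusted p = 0.0371, limma). Of 21 factors of nonsense-mediated decay, 1 was called, UPF3A, which fell from 71.3 and 75.1 TPM with vehicle to 39.2 and 43.6 TPM with bortezomib (log2 fold change -0.81, SE 0.20, adjusted p = 0.0394, limma). The others of that list were not called.

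Among 23 other long noncoding RNAs, 4 were called higher with bortezomib against vehicle and 0 lower, where 6.27% and 5.89% of all genes were. MIR22HG, the host of miR-22, went from 2.60 and 2.62 TPM to 19.4 and 13.7 TPM (log2 fold change 2.26, SE 0.30, adjusted p = 0.00583, limma). CYTOR went from 67.1 and 68.1 TPM to 156 and 160 TPM (1.21, SE 0.16, adjusted p = 0.00580, limma), and MIR4435-2HG, its close copy, with which it may share reads, by 0.68 (SE 0.16, adjusted p = 0.0349, limma). NORAD, which binds PUMILIO proteins, had 0.66 (SE 0.16, adjusted p = 0.0358, limma). On top of FeAc 3 of these were called higher, and NORAD was not (0.35, adjusted p = 0.167, limma). DLEU1, chosen after its values were seen, was called lower there, from 12.6 and 11.6 TPM with FeAc to 3.78 and 5.40 TPM with bortezomib plus FeAc (log2 fold change -1.24).

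All 10 heat shock and proteotoxic stress genes tested, among them HMOX1 and SQSTM1, were called higher with bortezomib, with log2 fold changes from 3.07 and a median of 4.66, so that each was above NEAT1. They include HSPA1A, which went from 7.18 and 1.69 TPM with vehicle to 6388 and 4569 TPM with bortezomib. Of 10 genes of the ATF4 and CHOP response, 8 were called higher (median 2.002), among them ATF3, which went from 18.1 and 19.9 TPM to 165 and 124 TPM (log2 fold change 2.85, SE 0.30, adjusted p = 0.00287, limma). The rise of NEAT1 lay between these medians and that of MALAT1 below both.

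**Figure D4:**
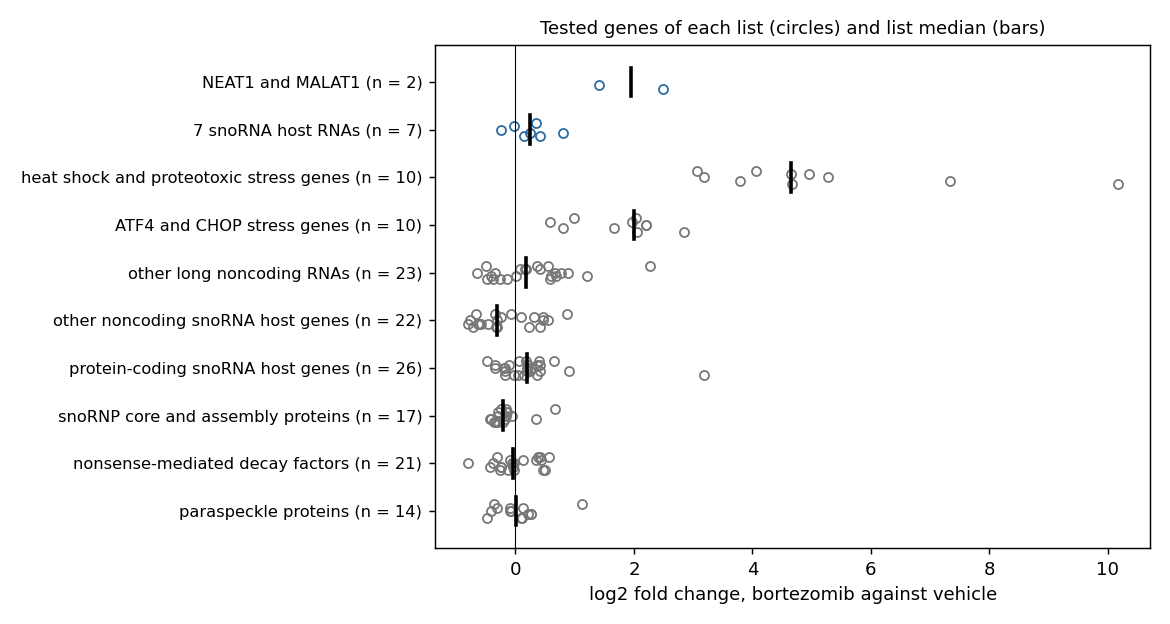
Log2 fold change for bortezomib against vehicle (horizontal axis) of each tested gene (circles) in 10 groups of genes (rows, with the number tested), with the median of each group as a bar. NEAT1 and MALAT1 are at 2.50 and 1.42, and the 7 hosts are between -0.24 and 0.80. The heat shock and proteotoxic stress genes have a median of 4.66. HSPA8 is in both that row and the row of protein-coding hosts. NOP56 is in the row of protein-coding hosts and in that of proteins that bind snoRNAs or assemble their particles.

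The snoRNAs that the hosts carry were hardly measured. Of 18 snoRNA genes annotated within the hosts, 69 to 137 bases long, 13 were listed at 0 in all 8 samples and 4 were above 0 in 1 sample. A further 9 names of host snoRNAs, most of them of GAS5, matched no row by name and so were not analysed. None of the 18 lies within GAS5, and 1 pair (named SNORA16A) starts at the same base of SNHG12. The other 1, ENSG00000278527 (chromosome 11, 62854161 to 62854285), named SNORD22 in the tables and lying within SNHG1, was at 24.6 and 33.6 TPM in the FeAc samples and was listed at 0 in the other 6. It was 1 of the 2 genes called for FeAc against vehicle. A further row named SNORD22, ENSG00000277194, also within SNHG1, was at 41.4 TPM in bortezomib replicate 2 and listed at 0 elsewhere, and SNORA24 within SNHG8, SNORA44 within SNHG12 and SNORA9 within SNHG15 were each above 0 in 1 sample, at 9.34, 21.1 and 22.1 TPM. These values were not read as snoRNA levels. A short RNA annotated inside NEAT1 (ENSG00000278144, 120 bases) was likewise at 0 in 5 samples and at 74.3 to 352 TPM in 3, and whether reads over NEAT1 were divided with that row cannot be told from these values.

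Promoters of the RefSeq table, 250 bases before to 50 after each start, were searched on both strands for 3 motifs bound by stress factors. Of the 9 RNAs, 7 had an entry there, and NEAT1 and SNHG15 were not searched. GAANNTTC, the core of the heat shock element, was in 1 of the 8 promoters of these 7 RNAs, that of GAS5, and in 6.77% of all promoters. TGATGNAA, bound by ATF4 with C/EBP partners, was in none of the 8 and in 3.62% of all, and TGACNNNGC, bound by NRF2, was in 1, a promoter of MALAT1, and in 13.3% of all. MALAT1 has 2 entries in the table. No test was made of these counts. A match is only a run of letters, and these windows leave out distant elements.

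The genes whose pattern over the 8 samples was most like each RNA were named by Pearson's r of log2(TPM + 1) among 10401 genes with at least 5 TPM in a group. The samples share the split by bortezomib, which gives high values for RNAs that follow it. The genes named were also picked for the highest r of 10401 over only 8 samples, and no test was made. For NEAT1 they were C16orf72 (r = 0.997), ZNF281 (0.996) and RIOK3 (0.995). For MALAT1 they were CWC25, a splicing factor (r = 0.988), CORO6 (0.969) and AL353743.1 (0.967).

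For ZFAS1 the nearest included SBDS, a ribosome maturation factor (r = 0.974), and RPL27A (0.963), and for SNHG8 MRPL54 (0.965), RPL17-C18orf32 (0.963) and CMC2 (0.957). GAS5 was nearest to SOCS6 (r = 0.991), MTRF1L (0.986) and SARS1, a seryl-tRNA synthetase (0.986), and SNHG12 to NXF1, the mRNA export receptor (0.963), ZNF558 (0.958) and PHKG2 (0.952). EPB41L4A-AS1 was nearest to ADPRS (r = 0.984), EAF1 (0.980) and FBXW5 (0.975). SNHG1 was nearest to PPAN-P2RY11 (r = 0.955), SUZ12P1 (0.950) and AC010323.1 (0.945), and the nearest to SNHG15 included TMED4 (0.933) and PTRH2 (0.910). Among the 9 RNAs themselves NEAT1 and MALAT1 had r = 0.931 and GAS5 and ZFAS1 r = 0.873, while SNHG15 and GAS5 had r = 0.01.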

How the data were processed

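RNA from 8 samples of MM.1S cells was prepared with a TruSeq kit and sequenced on an Illumina platform. Tools named in the submitters' processing notes are RSEM, HISAT2, StringTie, edgeR and DESeq2, with build GRCh38.p13. What each tool did, its version, the annotation release and the use of strand were not stated. The authors deposited 2 tables whose sample columns name no unit and were read as TPM from their sums. Columns with the authors' own means per group, p-values, fold changes and calls were not used.

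The tables were joined on gene ID, and positions and types came from GENCODE release 29 for 96.3% of the IDs. Genes whose mean reached 1 TPM in a group were tested with limma-trend (limma 3.58.1, R 4.3.3) on log2(TPM + 1), with Benjamini-Hochberg adjustment. Fold changes on this scale understate those of low genes. Comparisons of FeAc were fitted within a table on 4 samples, and those of bortezomib and the interaction on all 8. Calls needed an adjusted p under 0.05 and, other than for the interaction, a fold change over 1.5. The test was tried on simulated data first.

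Alternatives were a pseudocount of 0.1, no filter, a mean of 5 TPM, median-of-ratios scaling, removal of mitochondrially encoded genes, a replicate block, other samples in the fit, an unadjusted threshold and each sample left out. The named genes are the 9 RNAs, per list up to 4 genes with the smallest p for bortezomib against vehicle and up to 2 that moved the other way, of which the text gives a part, 3 genes per RNA by likeness, and snoRNAs above 0. Values of some single genes were left out here. The 9 RNAs, the lists and the tests were chosen with earlier results of these data known. Replicate numbers were not used as pairs in the main fits. Correlations of same-numbered deviations between groups were -0.15 to 0.19, which with 2 samples a group cannot decide whether same-numbered samples shared a batch.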

Additional observations from a re-analysis of the deposited data

How the results depend on the processing

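NEAT1 kept a rise with bortezomib under all alternatives run, from 2.12 to 2.87 (log2) against vehicle and from 1.55 to 2.08 on top of FeAc. Members called for bortezomib against vehicle were 3 at an unadjusted p under 0.05 and 3 with the effect averaged over FeAc, an alternative chosen after seeing the data, and 0 to 1 with a sample left out. On top of FeAc they were 0 with no filter, 0 with only the compared groups, 2 with scaling by the median of ratios, 3 at an unadjusted p under 0.05 and 0 to 3 with a sample left out. For the other comparisons the count was 0 throughout.

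Genes called for bortezomib against vehicle, 1800, were 799 with no filter, 3392 at an unadjusted p, 3330 averaged over FeAc and 74 to 2255 with a sample left out. On top of FeAc, 2044 became 613 with no filter, 3686 at an unadjusted p, 107 with only the compared groups and 55 to 3275 with a sample left out. For FeAc against vehicle, 2 became 4 with a pseudocount of 0.1 or a mean of 5 TPM, 0 with no filter, 343 at an unadjusted p, 1 with all groups in the fit and 0 with any sample left out. For bortezomib plus FeAc against bortezomib, 1 became 0 with no filter, a mean of 5 TPM, all groups in the fit or any sample left out, and 254 at an unadjusted p. For the interaction, 1 became 0 with a pseudocount of 0.1, no filter, a mean of 5 TPM or the replicate block, 348 at an unadjusted p and 5 to 18 with a sample left out. The causes were not tested.

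With the replicate number as a block, 23 genes were called for FeAc against vehicle, 1479 for bortezomib against vehicle and 1728 on top of FeAc, and no call of the 9 RNAs changed. With the pairing crossed between vehicle and FeAc, chosen after seeing the data, 16 genes were called.

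Scaling by the median of ratios moved the median over all genes on top of FeAc from -0.17 to 0.0049, and the calls from 732 higher and 1312 lower to 1074 and 800. Against vehicle it moved them from 928 and 872 to 1132 and 861. Signs turned for SNHG8 against vehicle (0.039 with this scaling, 0.14 averaged over FeAc), for SNHG1 on top of FeAc (0.076) and for MALAT1 in the interaction (0.037). With a sample left out, log2 fold changes that changed sign were those of MALAT1 for FeAc (-0.49 to 0.80), on top of bortezomib (-0.16 to 0.27) and in the interaction (-0.75 to 0.54), of NEAT1 on top of bortezomib (-0.31 to 0.22), of SNHG8 (-0.21 to 0.15) and SNHG15 (-0.031 to 0.32) with bortezomib against vehicle, and of SNHG1 (-0.27 to 0.0075), SNHG8 (-0.061 to 0.68) and SNHG15 (-0.13 to 0.35) for bortezomib on top of FeAc.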
